A study of Mus musculus with 6 samples.

Results

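The 10 genes described here encode transcription factors of effector regulatory T cells, namely Prdm1, Batf, Irf4, Maf, Gata3, Tbx21, Rora, Id2, Ahr and Nfil3. They were taken by name, and each was measured by the probe sets whose platform annotation gives only that symbol, 98 of the 269751 probe sets on the array. All 10 passed the filter on low values, which kept 13891 of 23152 genes. Regulatory T cells (Tregs), sorted as CD4-positive cells with high CD25, came from the spleens of 6 untreated male mice aged 45 weeks. In the KO group 3 mice were DJ-1-/-, that is, without the DJ-1 protein encoded by Park7, and in the WT group 3 littermates were DJ-1+/+. Each mouse gave 1 Affymetrix Mouse Gene 2.0 ST array, so n = 3 per group throughout. The labels give no strain and do not say how the knockout was made or whether it is limited to some cells.

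Tregs leave the resting state after signals through the T cell receptor, costimulators and cytokines, and the resulting effector Tregs carry a shared set of transcription factors. Batf, a basic leucine zipper protein that pairs with Jun proteins, and Irf4, an interferon regulatory factor, bind DNA together at composite sites and are needed for the effector state. Prdm1 encodes Blimp-1, a zinc finger repressor that marks effector Tregs making interleukin 10, and Maf is a leucine zipper factor that acts in interleukin 10 production. Gata3, Tbx21 (T-bet) and Rora adapt Tregs to particular tissues and inflammatory settings, Ahr is a ligand-activated receptor for aromatic compounds, Nfil3 is a leucine zipper repressor, and Id2 blocks E proteins from binding DNA.

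The targeted gene Park7 checks the labels and averaged 9.48 ± 0.21 over WT arrays against 5.91 ± 0.18 over KO arrays (mean ± SD of 3 arrays), on the log2(intensity + 16) scale used for every level and difference given here unless another is named. The label Treg was checked against 8 markers, and Foxp3, Il2ra, Ctla4, Ikzf2, Cd4, Cd3e, Cd3d and Cd3g all lay at or above the 97.6th percentile of all genes. Median intensity per array ranged from 88.6 to 100.2. KO replicate 1 had the lowest median, and its mean correlation with the rest was also lowest (0.951, against 0.957 to 0.964), and the differences of factors that move with it are given with and without it. Precision is limited by having 3 arrays a group, and in bulk RNA fewer cells of a type cannot be told apart from less RNA per cell.

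Nfil3 and Ahr were lower in KO Tregs past the threshold, and Batf and Prdm1 had the next largest differences without passing it. Of the 10 factors 2 passed an adjusted p of 0.05 in limma, both lower, against 0.266% of all tested genes that were lower past it. All 10 had negative differences, against 59.7% of all tested genes, and in 6 of the 10 every KO array lay below every WT array, against 11.3%. With each probe set centred on its own mean before the gene value was taken, an alternative chosen after seeing the data, 7 of the 10 did not overlap, against 13.1%, and 9 of the 10 were negative. The median difference of the 10 was -0.41 and that of all tested genes -0.05. At an unadjusted p of 0.05, 7 of the 10 were lower, against 7.67% of all tested genes.

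**Figure D1:**
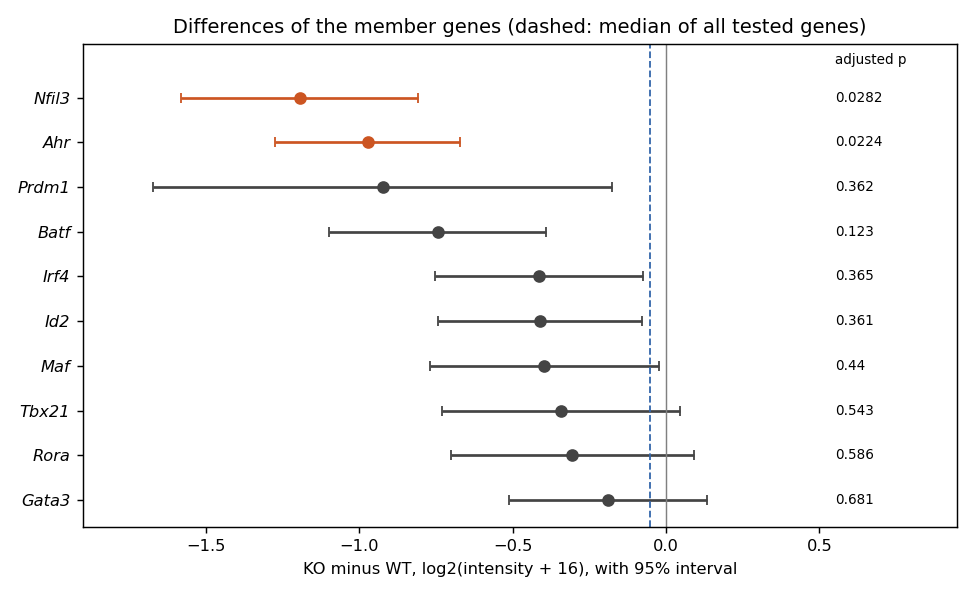
KO minus WT difference of each factor on the log2(intensity + 16) scale (horizontal axis), with the 95% interval from limma before adjustment as bars and the adjusted p at the right. Nfil3 (-1.19) and Ahr (-0.97), in orange, passed the threshold, and the intervals of Tbx21, Rora and Gata3 include 0.

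Ahr, the aryl hydrocarbon receptor, was at 9.03, 9.15 and 9.08 in WT replicates 1 to 3 and at 8.0003, 8.10 and 8.24 in KO replicates 1 to 3. The groups were apart by more than the range within either. It fell by 0.97 (SE 0.13, limma adjusted p = 0.0224), a 1.96-fold lower value in KO on this scale. All 12 of its probe sets had negative differences, from -0.15 to -1.60, and in 9 of the 12 the groups did not overlap. The probe set with the smallest p, 17280738, had intensities of 1013, 1182 and 1081 in WT and 431, 479.6 and 531 in KO. Probe set 17280737 had the largest difference, with intensities of 491, 458 and 497 in WT against 85.0, 224 and 169 in KO. The 3 Ahr probe sets 17280739, 17280740 and 17280741 differed by -0.40, -0.15 and -0.22, and their groups overlapped. The Ahr call was lost when any array other than KO replicate 1 was left out (adjusted p from 0.0781 to 0.151), while the difference stayed between -0.91 and -1.03 (-0.91 and adjusted p = 0.0389 without KO replicate 1).

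Nfil3, which represses genes with D-box elements, was at 8.69, 8.99 and 8.63 in WT and at 7.59, 7.82 and 7.31 in KO. No KO array reached the lowest WT array. It fell by 1.19 (SE 0.17, limma adjusted p = 0.0282). Its 5 probe sets all had negative differences, from -0.18 to -1.31, with a median of -0.59. The gene value exceeds most of them because the median was taken in each array, and the probe set in the middle was not the same one in all arrays: 17292637 in WT replicates 1 and 2, 17292636 in WT replicate 3 and KO replicates 1 and 2, and 17292639 in KO replicate 3. With centred probe sets Nfil3 differed by -0.59 and did not pass (adjusted p = 0.0909). With the mean of the probe sets it was -0.67 (adjusted p = 0.0631). The size and the call of Nfil3 therefore depend on how its probe sets are combined, while Ahr passed with centred probe sets too (-0.89, adjusted p = 0.0108). The Nfil3 call was also lost without WT replicate 1, 2 or 3 or KO replicate 3 (adjusted p from 0.104 to 0.151). The brightest probe set, 17292638, had intensities of 1176, 1155 and 1248 in WT and 1078, 833 and 693 in KO, and 17292636 had 402, 532 and 379 against 177, 209.7 and 121. Both pairs of groups were apart, the second by a wider margin.

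**Figure D2:**
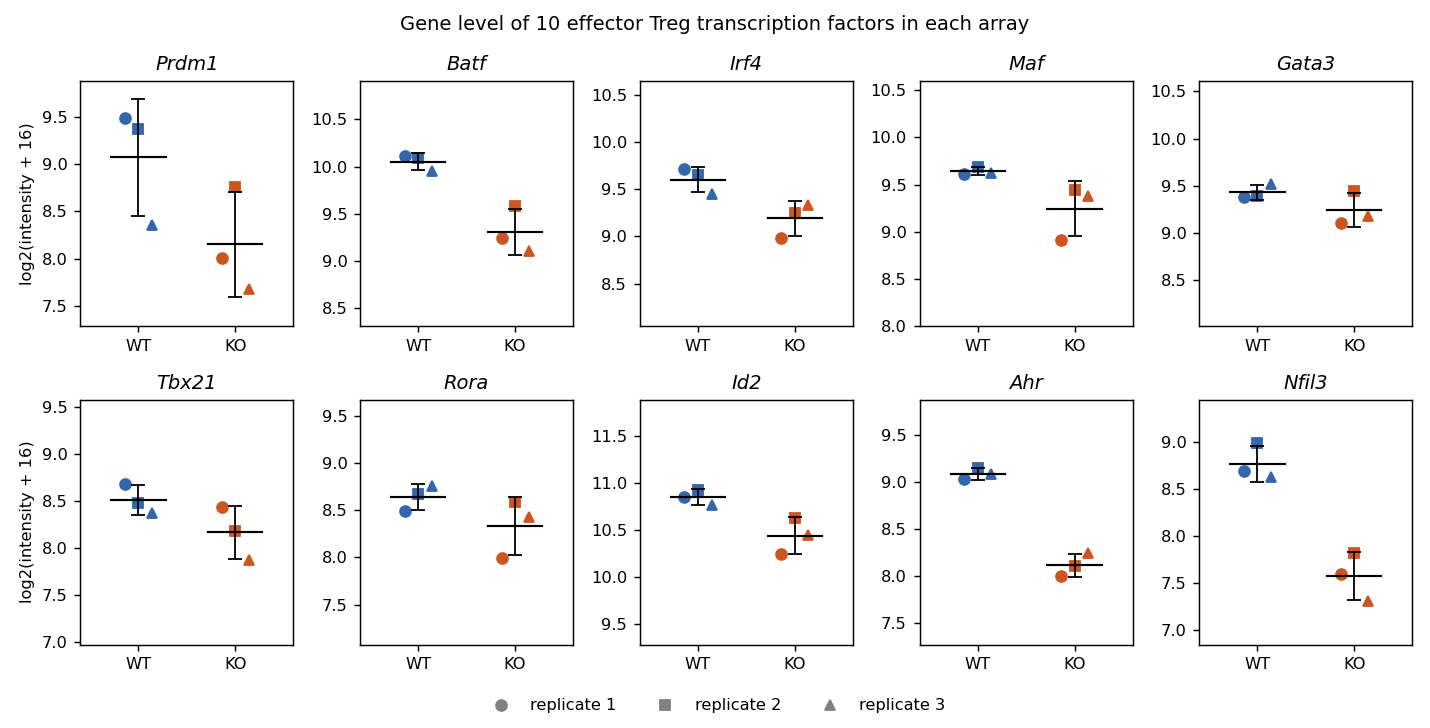
Gene level of each factor in the 3 WT and 3 KO arrays, on the log2(intensity + 16) scale (vertical axis, the same span in every panel); marker shapes give the replicate number, bars the mean and whiskers the SD. The WT and KO points are apart in Batf, Irf4, Maf, Id2, Ahr and Nfil3 and overlap in Prdm1, Gata3, Tbx21 and Rora.

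Among the core pair of the effector state, Batf differed more than Irf4. Batf was at 10.11, 10.09 and 9.95 in WT and at 9.24, 9.58 and 9.10 in KO. The difference was -0.74 (95% interval -1.10 to -0.39, adjusted p = 0.123), with no overlap of the groups, and all 5 Batf probe sets were also apart, with differences from -0.39 to -0.94. Batf passed in 1 of the 18 alternatives, when arrays were weighted by their quality (-0.78, adjusted p = 0.0391), and over all alternatives run its adjusted p lay between 0.0391 and 0.490. With centred probe sets the Batf difference was -0.56 (adjusted p = 0.118), and with the mean of the probe sets it was -0.62 (adjusted p = 0.0782). Irf4 was at 9.71, 9.65 and 9.45 in WT and at 8.99, 9.25 and 9.33 in KO. Its groups were apart by a small gap, with a difference of -0.41 (95% interval -0.75 to -0.08, adjusted p = 0.365), and 10 of its 11 probe sets had negative differences. Without KO replicate 1, its lowest array, the Irf4 difference was -0.31 (adjusted p = 0.444).

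Prdm1 had the widest spread of the 10. Its values were 9.49, 9.37 and 8.36 in WT and 8.01, 8.76 and 7.68 in KO. WT replicate 3 lay below KO replicate 2, so the groups overlapped, and the difference was -0.92 (95% interval -1.67 to -0.18, adjusted p = 0.362). The low value of WT replicate 3 was the mean of probe sets 17240648 and 17240649, which were each lowest there among the WT arrays. Probe set 17240648 had intensities of 812, 618 and 376 in WT and 192, 357 and 140 in KO. Those of 17240649 were 1087, 1183 and 259 in WT and 627, 499.6 and 442 in KO. With each probe set centred, Prdm1 was at 9.04, 9.13 and 8.76 in WT and at 8.26, 8.57 and 8.28 in KO, without overlap, and differed by -0.60 (adjusted p = 0.107); with the mean of the probe sets it differed by -0.56 (adjusted p = 0.198). Of the 12 Prdm1 probe sets 10 had negative differences. Probe set 17240658 went the other way, with intensities of 0.0169, 0.0276 and 0.0050 in WT against 20.8, 18.7 and 15.0 in KO, all far below the array medians. Its difference was 1.09 with an offset of 16 (adjusted p = 0.402 over all probe sets) and 4.23 with an offset of 1 (adjusted p = 0.0161), so its size is set by the offset.

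Maf was at 9.61, 9.69 and 9.63 in WT, within 0.08 log2 units of each other, and at 8.91, 9.45 and 9.38 in KO. The groups did not overlap and KO replicate 1 was the lowest array. The difference was -0.40 (95% interval -0.77 to -0.02, adjusted p = 0.440) and -0.23 without KO replicate 1. All 8 Maf probe sets had negative differences, from -0.25 to -0.74.

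Id2 was at 10.86, 10.93 and 10.76 in WT and at 10.24, 10.63 and 10.44 in KO. Every KO array lay below WT, with a difference of -0.41 (95% interval -0.74 to -0.08, adjusted p = 0.361). Without KO replicate 1, its lowest array, the Id2 difference was -0.31 (adjusted p = 0.434). With centred probe sets the groups overlapped, at 10.88, 10.91 and 10.68 in WT against 10.22, 10.68 and 10.57 in KO (-0.33, adjusted p = 0.363), and with the mean of the probe sets the difference was -0.22 (adjusted p = 0.530). Its 4 probe sets disagreed. Probe sets 17280311, 17280312 and 17280313 differed by -0.36, -0.48 and -0.42, whereas 17280314 was higher in KO, at intensities of 1238, 1020.4 and 1031 against 963, 938 and 660.3 (0.37, adjusted p = 0.712 over all probe sets).

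With gene values as medians over probe sets, the 3 factors of tissue and inflammatory programmes had overlapping groups and the smallest differences of the 10. Tbx21 was at 8.68, 8.48 and 8.37 in WT and at 8.44, 8.18 and 7.88 in KO, a difference of -0.34 (95% interval -0.73 to 0.05, adjusted p = 0.543). The difference was -0.48 without KO replicate 1 (adjusted p = 0.298) and -0.20 without KO replicate 3 (adjusted p = 0.714). Its probe sets were split: 17268446, 17268447, 17268449 and 17268450 were lower in every KO array, by 0.51 to 0.93, and 17268451, 17268452 and 17268453 overlapped between the groups. In 17268449 the intensities were 945, 809 and 854 in WT against 423, 569 and 370.1 in KO, and in 17268453 they were 190.4, 213 and 245 against 232, 212 and 219. With centred probe sets the Tbx21 difference was -0.55 and the groups did not overlap (adjusted p = 0.113), and with the mean of the probe sets it was -0.50 (adjusted p = 0.129). The positions of these probe sets within the gene were not used here.

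Rora was at 8.49, 8.68 and 8.76 in WT and at 7.995, 8.59 and 8.43 in KO. The difference of -0.30 (95% interval -0.70 to 0.09, adjusted p = 0.586) was -0.13 without KO replicate 1. It was -0.19 with the mean of the probe sets, -0.12 with centred probe sets and -0.20 with array weights. Of its 21 probe sets 13 had negative differences, against 53% of all probe sets, and in 2 every KO array lay below every WT array, against 7.64%. In 17518923 the intensities were 1082, 1129 and 1050.2 in WT and 285, 1216 and 1176 in KO, so KO replicate 1 alone was low.

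Gata3 was at 9.38, 9.39 and 9.52 in WT and at 9.10, 9.44 and 9.18 in KO. KO replicate 2 lay within the WT range, and the difference was -0.19 (95% interval -0.51 to 0.13, adjusted p = 0.681). Leaving out KO replicate 1 gave -0.12, and leaving out KO replicate 2 gave -0.29. The sign turned to 0.02 with the mean of the probe sets and with centred probe sets. Of its 13 probe sets 6 had negative differences, against 53% of all probe sets. The 2 whose groups did not overlap, 17366646 (0.43) and 17381540 (0.37), were higher in KO, where 6.17% of all probe sets had every KO array above.

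Taking single probe sets, 78 of the 98 had negative differences, against 53% of all probe sets. In 45 of the 98 every KO array lay below every WT array, against 7.64% of all probe sets, and in 4 every KO array lay above, against 6.17%. Of the 98, 35 were lower at an unadjusted p of 0.05, against 4.37%. Adjusted over all 269751 probe sets 0 of the 98 passed in limma (37 at an unadjusted p of 0.05; the smallest adjusted p was 0.402), where 0.000741% of all probe sets were lower past it. Probe sets of 1 gene were read on the same arrays, can cover different exons and are not replicates of it. Ahr, Batf, Maf and Nfil3 had negative differences in every probe set, whereas Gata3 and Rora were mixed.

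**Figure D3:**
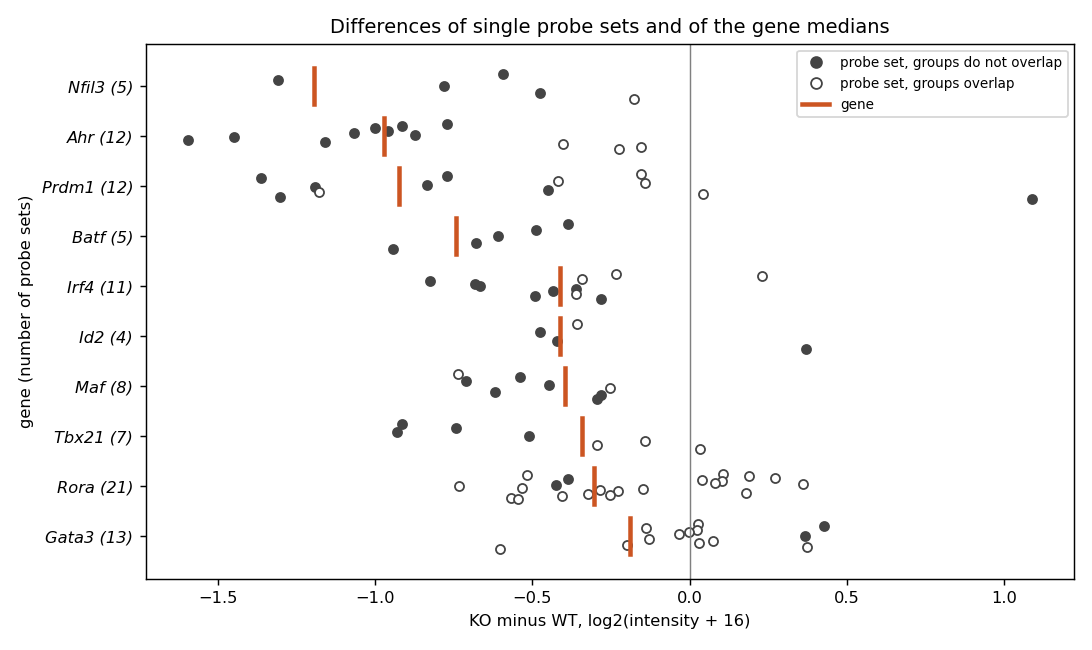
KO minus WT difference of every probe set of the 10 factors (circles, horizontal axis on the log2(intensity + 16) scale), filled where the 3 KO and 3 WT arrays do not overlap, with the gene value as an orange bar. The Nfil3 bar (-1.19) lies beyond all but 1 of its 5 probe sets, and the filled Prdm1 circle at 1.09 is a probe set near 0 intensity in WT.

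The factors did not rank the KO arrays alike. KO replicate 1 was the lowest array in 6 of the 10 genes and KO replicate 3 in 4 (Prdm1, Batf, Tbx21 and Nfil3). The median of the 10 values minus their WT means was -0.69, -0.32 and -0.52 in KO replicates 1 to 3, and -0.01, 0.05 and -0.09 in WT replicates 1 to 3. Over all tested genes the same median was -0.12, 0.00 and -0.01 in the KO arrays, so KO replicate 1 was lower over all genes as well. Without KO replicate 1 the median difference of the 10 was -0.40, and all 10 stayed negative. After quantile normalization it was -0.37 with all genes at -0.01, and after median centring -0.38 with all genes at -0.02, each with 10 of 10 negative.

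**Figure D4:**
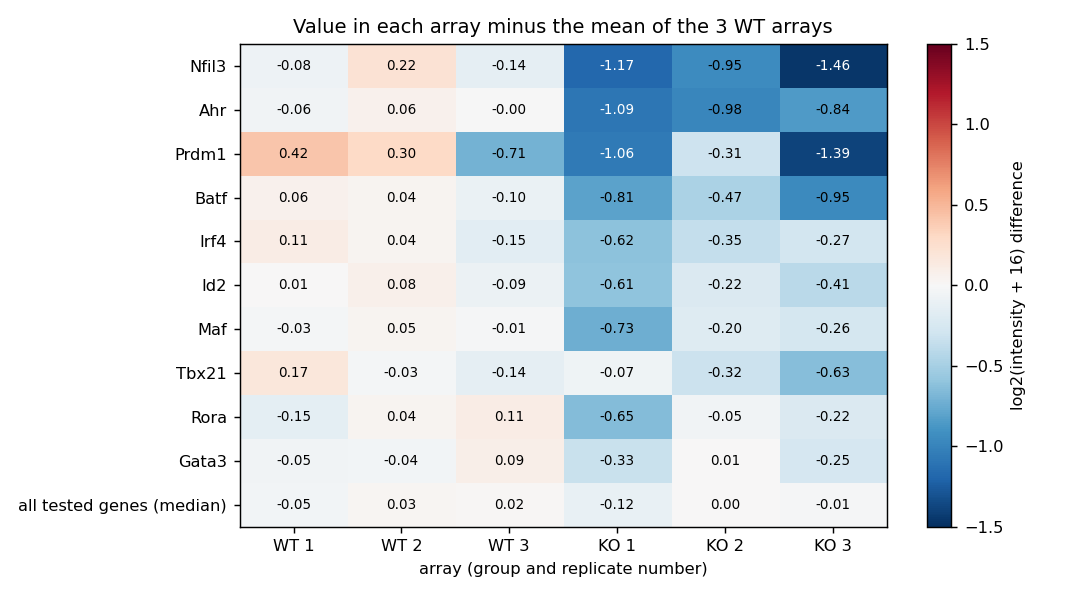
Value of each factor in each array minus its mean over the 3 WT arrays, on the log2(intensity + 16) scale (colour and printed number), with the median over all tested genes in the bottom line. Ahr is near -1 in all 3 KO arrays, from -0.84 to -1.09, whereas Maf and Rora are lowest in KO replicate 1 and Prdm1 is also low in WT replicate 3.

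The 5 genes outside the set whose values followed the mean profile of the 10 most closely over the 6 arrays were Kctd17 (Pearson r = 0.997), M6pr (0.996), Alox8 (0.995), Scin (0.994) and Fam132a (0.993). These are the highest of all tested genes by construction and are given with no test. Scin, an actin-severing protein, differed by -1.28 (adjusted p = 0.0769) and Alox8, a lipoxygenase, by -0.75 (adjusted p = 0.125).

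Products of effector Tregs, the surface receptors and cytokines that go with these factors, mostly had negative differences too. Of 26 tested genes 4 fell in limma and 0 rose, against 0.266% of all tested genes that fell. In 24 of the 26 the difference was negative, against 59.7%, and the median was -0.59, against -0.05 for all tested genes. In 15 of the 26 every KO array lay below every WT array, against 11.3% of all tested genes. The 4 were Tnfrsf9, the costimulatory receptor 4-1BB (-2.40, adjusted p = 0.0209), the interleukin 1 decoy receptor Il1r2 (-2.09, 0.0176), the inhibitory receptor Lag3 (-1.58, 0.0198) and Tnfrsf1b, a receptor for tumour necrosis factor (-1.05, 0.0224). Leaving out WT replicate 1 or 2 reduced the 4 calls to 0, leaving out WT replicate 3 to 1, and leaving out KO replicate 3 to 2. The list overlaps groups already examined in these data and is not independent support. Where these genes lie relative to Park7 was not used here, and a part of the targeted region in their falls was not tested.

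Targets of Ahr were mostly too dim to test. Of 8 listed genes 3 passed the filter, and Ahrr, Cyp1a2, Cyp1b1, Nqo1 and Aldh3a1 did not. None of the 3 passed the threshold in limma (1 lower at an unadjusted p of 0.05, against 7.67% of all tested genes). Gpr15, a homing receptor for the colon, averaged 8.39 ± 0.13 over WT and 7.68 ± 0.27 over KO arrays (SD, -0.72, adjusted p = 0.166, no overlap), while Cyp1a1, a cytochrome P450, differed by 0.18 (adjusted p = 0.718) and Tiparp, an ADP-ribosyltransferase, by -0.03 (adjusted p = 0.974).

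Binding partners and relatives of the factors had a median near 0. Of 19 tested genes 0 passed in limma (3 at an unadjusted p of 0.05, 2 of them lower) and 9 had negative differences. The median was 0.00, against -0.05 for all tested genes, of which 59.7% had negative differences. Of all tested genes 0.266% were lower past the threshold, and at the unadjusted p 7.67% were lower and 2.99% higher. The Ahr partner Arnt differed by 0.00 (adjusted p = 0.995), whereas its relative Arnt2 had the smallest p of the list (-0.78, adjusted p = 0.144, no overlap). The interferon regulatory factor Irf8 differed by -0.42 (adjusted p = 0.391). Jun, a partner of Batf, differed by 0.35 (adjusted p = 0.461), and each KO array lay above each WT array.

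Signalling genes upstream of the factors and clock genes did not pass either. Of 20 upstream genes 0 passed in limma (2 at an unadjusted p of 0.05, both lower), 10 had negative differences and the median was -0.03. The 3 with the smallest p were Relb (-0.38, adjusted p = 0.329), Nfkb2 (-0.38, 0.395) and Stat6 (0.28, 0.537). Of 14 tested clock genes, a group that Nfil3 and Rora act on, 0 passed in limma (2 at an unadjusted p of 0.05). Negative differences were found in 5 of the 14, and the median was 0.07. Over all tested genes 59.7% had negative differences and the median was -0.05. Of these genes 0.266% were lower past the threshold, and at the unadjusted p 7.67% were lower and 2.99% higher. Bhlhe40 differed by -0.58 (adjusted p = 0.391), Per3 by 0.47 (0.398) and Nr1d2 by -0.41 (0.525).

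Genes of resting and naive T cells, several of which oppose the effector state, did not pass the threshold. Of 11 tested genes 0 passed in limma (3 at an unadjusted p of 0.05, all higher, against 2.99% of all tested genes higher at that p). Negative differences were found in 3 of the 11, against 59.7% of all tested genes, and the median was 0.09 against -0.05. Bach2, a repressor of the effector programme, differed by 0.51 (adjusted p = 0.419), Foxo1 by 0.32 (0.459) and the chromatin organiser Satb1 by 0.58 (0.465).

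**Figure D5:**
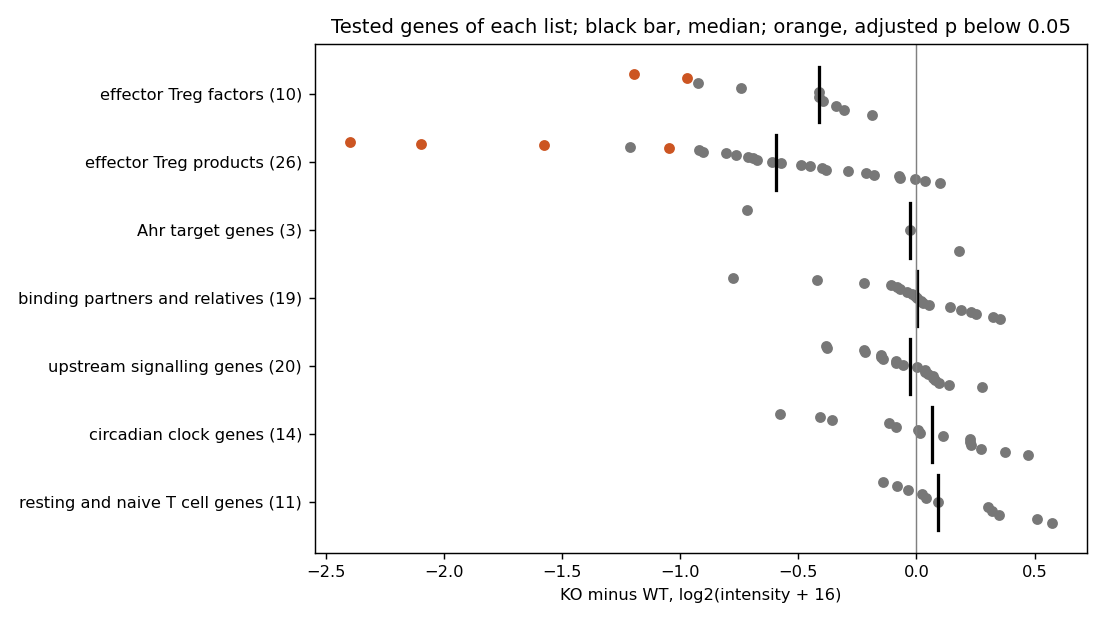
KO minus WT difference of each tested gene (circles, horizontal axis on the log2(intensity + 16) scale) in the 10 factors and in 6 lists of related genes, with the list median as a black bar and genes past an adjusted p of 0.05 in orange. The medians of the factors (-0.41) and of effector Treg products (-0.59) lie below 0, and those of the other lists lie between -0.03 and 0.09.

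Several of the 10 factors are also expressed by other leukocytes, so the markers of those cells are given with them. For comparison, 59.7% of all tested genes had negative differences, 0.266% were lower past the threshold and the median difference was -0.05. At an unadjusted p of 0.05 in limma, 7.67% of all tested genes were lower and 2.99% higher. Prdm1 and Irf4 are high in plasma cells. Of 5 tested plasma cell markers 4 had negative differences and 0 passed in limma. At an unadjusted p of 0.05, 2 were lower, Pou2af1 (-0.61, adjusted p = 0.234, no overlap) and Igj (-0.85, adjusted p = 0.362). Tnfrsf17 was under the filter floor. The summed intensity of the list was 1900 to 2345 in WT and 1597 to 1959.9 in KO. Its brightest gene, Xbp1, averaged 10.73 over WT and 10.53 over KO arrays. Tbx21, Id2 and Nfil3 act in natural killer and innate lymphoid cells, whose list had 6 tested markers, 4 with negative differences and 0 past the threshold. At an unadjusted p of 0.05, 1 was lower, Ncr1 (-0.85, adjusted p = 0.212, no overlap). Klre1, Klrd1 and Gzma were under the floor, and the sums were 928 to 1076 in WT and 671 to 965 in KO. Maf and Ahr are also found in macrophages, whose list had 6 tested markers, all with negative differences and a median of -0.41, with Vcam1 past the threshold (-1.15, adjusted p = 0.0343) and 3 lower at an unadjusted p of 0.05 (Vcam1, C1qc and Csf1r). In that list Emr1, Mertk, Lyz2 and Cd14 were under the floor, and the sums of 742 to 1157 in WT and 581 to 730.1 in KO did not overlap. The CD8 T cell list had 4 tested markers with Gzmk past the threshold (-2.09, adjusted p = 0.00208), and its sums of 758 to 824 in WT and 481 to 547 in KO did not overlap. The other CD8 markers differed by 0.03 (Cd8a, adjusted p = 0.955), -0.05 (Crtam, 0.936) and -0.30 (Cd8b1, 0.528, no overlap). In the B cell (1004 to 1429 against 1023 to 1188), dendritic cell (545 to 655 against 511 to 597), conventional CD4 (2278 to 2441 against 2046 to 2735) and erythroid and neutrophil (213 to 233 against 194 to 247) lists 0 of 3, 4, 5 and 3 tested markers passed in limma (0, 0, 1 and 0 at an unadjusted p of 0.05), and the WT and KO sums overlapped. The 1 in the conventional CD4 list was Il21, lower in KO (-0.79, adjusted p = 0.221). The sums of the 8 Treg markers were 39612 to 39788 in WT and 35235 to 38543 in KO and did not overlap either. Of the 8, 7 had negative differences and 0 passed in limma, with Cd3d lower at an unadjusted p of 0.05 (-0.41, adjusted p = 0.398). In 3 of them every KO array lay below every WT array, against 11.3% of all tested genes. In 1 (Foxp3) every KO array lay above, against 847 of the 13891 tested genes. The part of these cells in the differences of the 10 factors was not tested.

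RefSeq promoter sequences (GRCm38.p6) were matched by symbol for 8 of the 10 factors, all but Maf and Ahr. The 250 bases before the start of each gene were searched on both strands for sites of the factors themselves. Of the 4 factors with the largest differences, 3 have a window here (Nfil3, Prdm1 and Batf), and these are shown since each holds a match to a pattern searched for another factor of the set. Matches are in capitals, and none of those in capitals overlap.

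Nfil3, chr13:52981040-52981289, minus strand: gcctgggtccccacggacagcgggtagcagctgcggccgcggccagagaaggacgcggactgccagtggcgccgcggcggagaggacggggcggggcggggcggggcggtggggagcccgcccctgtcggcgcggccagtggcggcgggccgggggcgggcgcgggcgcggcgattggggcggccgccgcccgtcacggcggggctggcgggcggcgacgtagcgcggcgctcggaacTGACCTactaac
Prdm1, chr10:44458749-44458998, minus strand: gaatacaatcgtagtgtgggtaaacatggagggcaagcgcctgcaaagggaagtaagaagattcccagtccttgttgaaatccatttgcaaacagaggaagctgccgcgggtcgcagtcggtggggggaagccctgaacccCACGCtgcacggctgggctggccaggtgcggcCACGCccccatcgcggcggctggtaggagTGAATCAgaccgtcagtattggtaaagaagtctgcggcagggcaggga
Batf, chr12:85686470-85686719, plus strand: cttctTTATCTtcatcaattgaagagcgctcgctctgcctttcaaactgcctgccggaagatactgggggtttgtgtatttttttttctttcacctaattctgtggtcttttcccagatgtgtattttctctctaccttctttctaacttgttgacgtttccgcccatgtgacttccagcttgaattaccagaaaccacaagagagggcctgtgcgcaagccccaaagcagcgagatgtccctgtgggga

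In Nfil3 the capitals mark the reverse complement of AGGTCA, the half-site of Rora and other nuclear receptors, which 14% of all 32851 windows of this length hold. In Prdm1 they mark a match to TGANTCA, a loosened form of the AP-1 site of Batf and its partners that allows any middle base (N). The match, TGAATCA, has A there, and 6.75% of windows hold the loosened form. Also in capitals in Prdm1 are 2 matches to the reverse complement of GCGTG, the core of the Ahr response element, held by 28.2%. Rora and Irf4 hold GCGTG too. In Batf they mark the reverse complement of AGATAA, the site of Gata3 and its relatives, held by 9.99%, and the Maf half-site TGCTGA (16.1%) was found in Gata3 only. The D-box core TTANNTAA of Nfil3 (5.43%), the interferon response element of Irf4 (2.98%) and the T-box site AGGTGTGA (1.12%) were in none of the 8 windows. The E-box CANNTG, bound by the partners of Id2, was in 5 of the 8 and in 66.2% of all windows, and is not in capitals. These matches describe letters in the windows and were not tested for binding.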

How the data were processed

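Per the labels, RNA of sorted Tregs was profiled with 1 array per mouse, and the deposited values are intensities per exon-level probe set, summarised with PLIER in Affymetrix Expression Console 1.4 per the submitters' processing notes. Background correction, normalization between arrays and genome build are not given in the sources used here. Groups and replicate numbers came from the titles. Intensities were taken as log2(intensity + 16), which understates differences of dim probe sets. Gene values were medians over single-symbol probe sets (233753 of 269751; 5106 had several and 30892 none), and genes under the 40th percentile (5.90) were left out. The genotypes were compared in limma 3.58.1 under R 4.3.3 (lmFit, eBayes, two-sided, Benjamini-Hochberg over all tested genes or all probe sets, threshold 0.05). With 3 arrays a group an exact permutation test reaches at best 0.1. On simulated arrays of 13891 genes with the measured spread, 69% of the genes given a change of 1 log2 unit were found and 4.52% of calls were unchanged genes (93% and 7.66% with the moderated spread). Other genes were changed by 2 log2 units there, the number of changed genes was fixed, and noise was drawn independently per gene. The shares depend on these settings and are not the power of the real comparison. All 10 factors were named whatever their values, with the probe set of smallest p per factor, list genes past the threshold or else the 3 of smallest p, and the 5 genes of most similar profile; other probe sets, markers and Arnt were chosen after their values were seen. The factors, lists and tests were chosen with earlier results of these data known. Of the listed genes, 12 had no probe set with that symbol alone and were not analysed here. Alternatives were other offsets, filters, probe-set summaries, normalizations, variance models, a replicate block and leaving out each array.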

Additional observations from a re-analysis of the deposited data

How the results depend on the processing

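The member count of 2 was 1 with the mean of probe sets and 1 with centred probe sets (Ahr in both), 3 with array weights (Ahr, Batf and Nfil3), and 0 to 2 when arrays were left out. The count over all genes, 38, was 60 with the mean of probe sets, 70 with centred probe sets, 125 with array weights, 67 with the replicate block and 4 to 37 with an array left out. Whether replicate numbers mark pairs was not settled. WT and KO deviations of the same number correlated by 0.15, 0.169 and 0.0101, and those of unlike numbers by -0.189 to 0.092. Of the 6 arrays 4 correlated best with their own number, so a pairing was neither shown nor excluded. With the replicate block the member count was also 2, and the count of probe sets was 0. That count, 3, was 79 and 8 with offsets of 1 and 64, 17 with bright probe sets, 7 with quantile normalization, 10 with median centring and 0 to 2 with an array left out. The count of member probe sets, 0, was 1 with an offset of 1 (Prdm1 17240658) and 0 in the other alternatives run. List genes past the threshold numbered 4; they numbered 6 with an offset of 64, the mean of probe sets, quantile normalization, median centring, a variance trend, array weights or the replicate block, 5 with the 60th percentile filter or centred probe sets, and 0 to 4 with an array left out. Gata3 turned to 0.017 with the mean of probe sets and 0.016 with centred probe sets. The other 9 factors kept their negative sign in all alternatives run.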
